A study of Homo sapiens with 25 samples.

Results

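Open chromatin that stays open and carries no trimethylation of histone H3 at lysine 4 (H3K4me3) was examined in HEC-1A cells, a human endometrial adenocarcinoma line. Peaks of 9 ATAC-seq lists on chromosomes 1 to 22 and X were merged into 239554 regions, of which 21415 held a peak in 9 of 9 lists and are called constant here. Of these, 4672 regions, or 21.8%, overlapped no H3K4me3 peak in any of 6 lists and form the set described below, selected on these listed peaks, and the other 16743 overlapped at least 1. Both properties were used to choose the regions and are no finding about them.

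The study set untreated cells beside cells given 20 µM of THC, with 3 libraries per group. RNA-seq and ATAC-seq each had untreated cells, cells treated for 24 h and cells treated for 72 h, and H3K4me3 was profiled by CUT&RUN in untreated and THC-treated cells with no duration given. Every group was the same cell line and no allele or second agent was named. The labels call the replicates of a group biological and do not say how they were grown apart, so p-values measure the spread between these libraries.

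ATAC-seq marks DNA that a transposase can reach, in promoters, enhancers and insulators. H3K4me3 is laid down around the start sites of active genes, so open DNA without it is usually read as distal: an enhancer, where activator proteins bind, or an insulator, where CTCF and cohesin anchor loops of chromatin. Open regions that do not come and go with a treatment include many insulators and constitutive elements. Arrays of repeated genes and DNA copied between chromosomes can also give peaks, because reads from several copies may be placed at the same spot.

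By distance from the starts of protein-coding and lncRNA genes, the name "distal" held for most of the set but not for all of it. Starts of other genes, such as those of ribosomal RNA, were not counted, so regions on them can count as distal here. A total of 4184 regions (89.6%) lay more than 1 kb from any start site of a protein-coding or lncRNA gene, against 42.0% of the constant regions with H3K4me3 and 88.2% of all merged regions. A share of this size was thus not particular to the set. The median distance to the nearest start was 17.03 kb. Another 250 regions (5.35%) held such a start, and 488 (10.4%) held one or lay within 1 kb of it. Epithelial markers were present in the RNA, with summed levels of 3119.6 ± 71.3 TPM (transcript abundance scaled to a fixed library total, SD, n = 3) over 10 genes in untreated cells, while 6 immune markers summed to at most 0.123 TPM and 4 endothelial markers to at most 0.160 TPM in any group's mean. The epithelial sum was 5173.7 ± 104.0 TPM at 24 h and 3887.9 ± 120.0 TPM at 72 h. The 7 stromal markers summed to 3.10 ± 0.113 TPM in untreated cells, 0.935 ± 0.280 TPM at 24 h and 1.08 ± 0.225 TPM at 72 h. Of the untreated sum COL1A1 alone gave 2.98 TPM, LUM was at 0 in all libraries, and COL1A2 and DCN were at 0 in untreated cells. In bulk RNA, fewer cells of a type and less RNA per cell cannot be told apart.

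The start sites inside the set showed what part of it is made of, and the stretches before some of them, chosen by hand, are printed here. RefSeq promoter windows (GRCh38.p14, 250 bases before to 50 bases after a start) were available for 207 start sites inside 168 of the regions. A window was called copied when at least 50% of its words of 24 letters also occurred, on either strand, in another window that did not overlap it. By this measure 89 of the 207 windows (43.0%) were copied, against 60 of 11569 (0.519%) at starts inside constant regions with H3K4me3 and 2.17% of all 34789 windows. The 150 bases before 10 starts follow, 5′ to 3′ along the gene, with capitals marking every letter that lies in a copied word.
H4C14 (chr1:149832507-149832656, plus strand): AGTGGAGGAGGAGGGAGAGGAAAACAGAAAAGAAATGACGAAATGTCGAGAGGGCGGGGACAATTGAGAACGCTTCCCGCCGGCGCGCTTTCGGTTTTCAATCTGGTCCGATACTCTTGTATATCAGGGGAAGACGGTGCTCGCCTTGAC
H4C15 (chr1:149861160-149861309, minus strand): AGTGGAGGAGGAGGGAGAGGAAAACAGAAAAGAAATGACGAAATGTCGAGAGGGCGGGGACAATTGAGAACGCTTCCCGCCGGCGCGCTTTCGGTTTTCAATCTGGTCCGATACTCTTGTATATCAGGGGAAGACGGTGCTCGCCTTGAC
ZNG1C (chr9:68241833-68241982, plus strand): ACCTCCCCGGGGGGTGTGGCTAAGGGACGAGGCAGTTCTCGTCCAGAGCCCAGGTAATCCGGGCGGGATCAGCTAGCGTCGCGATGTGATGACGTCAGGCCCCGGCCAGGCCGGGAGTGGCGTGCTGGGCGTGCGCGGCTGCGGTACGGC
ZNG1F (chr9:41189318-41189467, minus strand): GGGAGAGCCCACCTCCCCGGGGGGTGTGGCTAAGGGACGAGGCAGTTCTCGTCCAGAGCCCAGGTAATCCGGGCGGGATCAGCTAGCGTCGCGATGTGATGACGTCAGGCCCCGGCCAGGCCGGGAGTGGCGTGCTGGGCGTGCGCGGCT
IFNL2 (chr19:39268246-39268395, plus strand): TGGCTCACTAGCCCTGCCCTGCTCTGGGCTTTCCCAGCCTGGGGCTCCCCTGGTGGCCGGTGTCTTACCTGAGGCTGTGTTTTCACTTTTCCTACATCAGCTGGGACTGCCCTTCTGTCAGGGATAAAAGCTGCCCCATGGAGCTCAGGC
IFNL3 (chr19:39245251-39245400, minus strand): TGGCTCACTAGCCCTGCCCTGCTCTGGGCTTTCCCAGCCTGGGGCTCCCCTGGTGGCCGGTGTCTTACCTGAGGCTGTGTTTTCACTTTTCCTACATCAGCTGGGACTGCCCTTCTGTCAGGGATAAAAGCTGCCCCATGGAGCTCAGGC
SIK1 (chr21:43427132-43427281, minus strand): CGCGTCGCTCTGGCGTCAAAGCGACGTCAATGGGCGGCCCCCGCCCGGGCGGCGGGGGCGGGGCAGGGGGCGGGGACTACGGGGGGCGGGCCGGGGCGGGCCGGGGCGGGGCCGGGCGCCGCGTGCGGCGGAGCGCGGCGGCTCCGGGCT
TENM3 (chr4:182448866-182449015, plus strand): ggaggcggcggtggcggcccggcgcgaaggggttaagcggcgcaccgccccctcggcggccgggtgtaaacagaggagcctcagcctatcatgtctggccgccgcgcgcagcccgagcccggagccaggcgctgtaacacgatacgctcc
KCNH1 (chr1:211134149-211134298, minus strand): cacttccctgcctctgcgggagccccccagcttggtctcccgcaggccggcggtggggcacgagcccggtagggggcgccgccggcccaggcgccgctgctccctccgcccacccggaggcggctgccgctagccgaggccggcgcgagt
OXTR (chr3:8769233-8769382, minus strand): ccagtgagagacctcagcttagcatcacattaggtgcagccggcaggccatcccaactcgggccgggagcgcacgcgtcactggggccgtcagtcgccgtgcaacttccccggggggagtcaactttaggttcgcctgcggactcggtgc

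The first 7 of these stretches consist of copied letters throughout, and the last 3 hold none. This clean split comes from the choice of genes. Other windows of the set lay between, such as TCAF2 with 43.0% and GTF2H2 with 71.8% of words copied. The histone H4 genes H4C14 and H4C15 differed at 0 of 150 letters, as did the interferon lambda genes IFNL2 and IFNL3. The ZNG1C and ZNG1F stretches differed at 0 of 140 letters once shifted by 10 bases. ZNG1 genes encode proteins that deliver zinc to a methionine aminopeptidase. The window of SIK1, a salt-inducible kinase that signals downstream of cAMP, had a copied partner, LOC102724428, whose start lay in another region of the set on the short arm of chromosome 21. TENM3 encodes a teneurin of neurons, KCNH1 a potassium channel and OXTR the oxytocin receptor.

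Protein-coding genes with a copied start in the set are described apart from those with a start below the copy threshold, with no test between them. A window below it is not shown to be unique, since the table holds 71.3% of genes. Of 30 copied genes with an RNA value, 24 had an untreated mean of at least 1 TPM, with a median of 10.6 TPM. Of 47 genes with a window that was not copied, 18 reached 1 TPM and the median was 0.293 TPM, and a gene with windows of both kinds counts in both. At starts inside constant regions with H3K4me3, 95.8% of 7732 genes reached 1 TPM, with a median of 26.7 TPM. Reads from near-identical copies can be divided between them, so the level of any copied gene is uncertain.

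Of 40 tested genes with a start in the set, 17 had at least 20 TPM in untreated cells, and 9 of these 17 were copied. The other 8 had windows below the copy threshold, which are not shown to be unique, so their levels and missing peaks carry the same doubt. The region of ARHGEF35 also held the copied start of ARHGEF35-AS1. CAMTA1 and NOMO2 lay 0.931 and 0.285 kb from an H3K4me3 peak and SHTN1 10.1 kb. ARHGEF35, PPIP5K1, EIF3C, THOC3 and NSF lay over 50 kb from any. The last 3 are given here, chosen after their values were seen. EIF3C, a subunit of translation initiation factor 3, was at 435 ± 28.8 TPM (SD, n = 3) in untreated cells, and no H3K4me3 peak lay within 51.6 kb of its region. THOC3, of the THO complex that couples transcription to mRNA export, was at 207 ± 21.2 TPM and its region lay 95.6 kb from an H3K4me3 peak. NSF, an ATPase of vesicle fusion, was at 42.7 ± 1.55 TPM with the nearest H3K4me3 peak 179 kb away. In these 3 genes the region around a start site held a peak in every list and the gene was transcribed, while no H3K4me3 peak was listed there. Coverage of the start base itself in every list was not checked. Whether reads that map to several places were kept in the H3K4me3 lists is not stated in the labels, and its part was not tested.

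Short binding motifs were counted in the same promoter windows of 300 bases, on both strands, as letters only. TGANTCA, bound by AP-1, was in 7.73% of the 207 windows of the set, in 4.38% of windows at constant regions with H3K4me3 and in 7.69% of all windows. CCGGAAGT, bound by ETS factors, was in 1.93%, 9.72% and 4.12%, and GGGCGGGG, bound by SP and KLF factors, in 20.3%, 39.6% and 22.8%. CCAAT, bound by NFY, was in 29.0%, 37.9% and 34.6%. For these last 3 the share was lowest in the set and highest where H3K4me3 was listed, and other motifs went otherwise. TGTGGTT, bound by RUNX factors, was in 4.83%, 2.53% and 4.28%, and TGACGTCA, bound by CREB factors, in 2.90%, 3.28% and 1.84%. TGTTTAC, bound by FOX factors, was in 2.42%, 2.05% and 3.42%, and ACATTCC, bound by TEAD factors, in 1.45%, 2.00% and 3.48%. TTAATNATT, bound by HNF1, was in 0.966%, 0.570% and 1.31%, and AACCGGTT, bound by GRHL factors, in 0.483%, 0.190% and 0.132%. Copied windows share their letters and are not independent, and no test was made.

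Some of the microRNA hairpins in the set lay in small families. Genes of miRNAs were touched by 19 regions of the set (0.407%) and by 87 constant regions with H3K4me3 (0.520%), so they were not particular to the set. Of 1558 hairpins in the RefSeq table, 14 with a mature sequence fell wholly inside 11 regions, with 11 distinct seeds, of which 4 were shared. The seed, bases 2 to 8 of the mature miRNA, sets its target choice and is in capitals below for the families with copies.
hsa-miR-941 (MIR941-1, MIR941-3, MIR941-4 and MIR941-5): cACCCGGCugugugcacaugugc
hsa-miR-3180-3p (MIR3180-2 and MIR3180-3): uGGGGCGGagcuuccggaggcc
hsa-miR-3180 (MIR3180-4): uGGGGCGGagcuuccggag
hsa-miR-3180-5p (MIR3180-2 and MIR3180-3): cUUCCAGAcgcuccgccccacgucg
hsa-miR-6724-5p (MIR6724-2 and MIR6724-4): cUGGGCCCgcggcgggcgugggg

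All 4 MIR941 hairpins lay in 1 region of 956 bases, chr20:63919386-63920341. The 3 MIR3180 genes lay in 3 regions of 1185 to 1523 bases on chromosome 16, and the 2 MIR6724 genes in regions of 3397 and 3793 bases in the ribosomal DNA of chromosome 21. No small RNA library was analysed here.

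Other repeated genes lay in the set as well. The snaR genes encode short RNAs that bind the protein NF90. Of 28 snaR genes, 19 were touched by 19 regions of the set, and 0 constant regions with H3K4me3 touched any of them. These 19 regions lay at chr19:47907260-47956304 and chr19:50091968-50139572, with a median width of 504 bases. The median over them of the mean percentile of fold enrichment within a list was 92.5. On this scale 100 is the peak with the highest value in that list. Fold enrichment is the authors' own value for each peak and was ranked only within its list.

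Pseudogenes of mitochondrial genes, which are pieces of mitochondrial DNA inserted into chromosomes, were touched by 13 regions of the set and by 0 constant regions with H3K4me3. Their median percentile was 99.4. Ribosomal RNA genes were touched by 8 regions against 1 with H3K4me3, with a median width of 3571.5 bases and a median percentile of only 0.343. Both groups had exceptions to their medians: the pseudogene regions ranged from the 8.32 to the 99.97 percentile and the ribosomal ones from 0.0414 to 58.0. Antigen receptor V segments were touched by 11 regions (0.235%) against 3 (0.0179%), and other pseudogenes by 3.40% of the set against 0.818%. Transfer RNA genes went the other way, with 14 regions (0.300%) in the set and 97 (0.579%) among constant regions with H3K4me3.

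Regions of the set were narrower at the median and wider at the extreme than constant regions with H3K4me3. The median width was 574 bases, with quartiles of 348 and 1090 and a range of 130 to 11137. Constant regions with H3K4me3 had a median of 781 bases and a maximum of 5001. In the set 298 regions (6.38%) were at least 2000 bases wide, against 196 (1.17%) of those with H3K4me3, and 27 against 2 reached 4000 bases. The stretch covered in all 9 lists was shorter, with a median of 130 bases, and 354 regions had no base that all 9 lists covered. A merged region grows with every list added, so these widths describe the union of peaks.

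**Figure D1:**
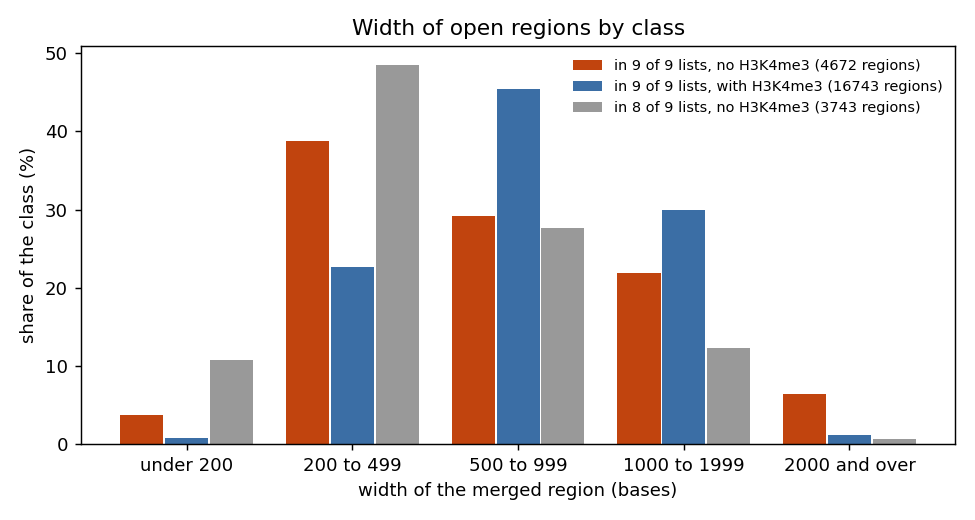
Share of regions (%) in each width class (bases) for constant regions without H3K4me3, constant regions with it, and regions without H3K4me3 in 8 of 9 lists. The set has more regions than the H3K4me3 class both from 200 to under 500 bases (38.8% against 22.7%) and at 2000 bases and over (6.38% against 1.17%).

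The share of regions close to a chromosome end rose with width, although most wide regions lay elsewhere. A chromosome's end was taken as its outermost merged ATAC region or RefSeq gene. Within 3 Mb of it lay 986 regions of the set (21.1%), against 7.84% of constant regions with H3K4me3 and 8.89% of all merged regions. By width, this share was 9.93% under 500 bases, 25.3% from 500 to under 1000, 30.1% from 1000 to under 2000 and 45.3% from 2000 upward. For constant regions with H3K4me3 the same 4 shares ran from 6.76% to 16.8%. The median percentile of fold enrichment was 79.4, 71.0, 58.3 and 58.8 in the same order of widths. The wider classes thus had lower values than the narrowest. Whether the width of a peak itself sets this value was not tested. Regions are not replicates, and no test was made between classes.

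**Figure D2:**
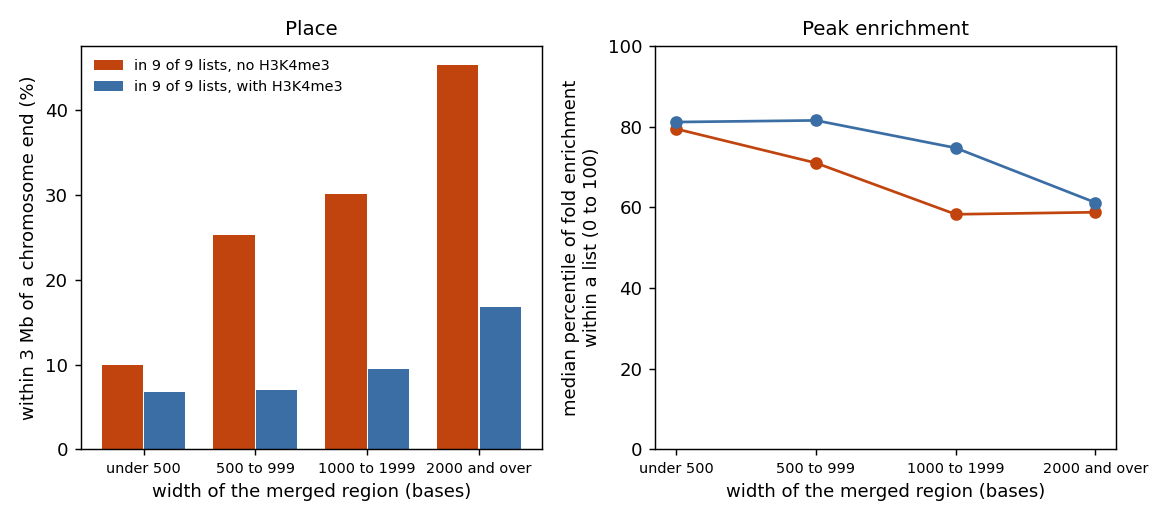
Left, share of regions (%) within 3 Mb of a chromosome's outermost ATAC region or RefSeq gene, by width. Right, median percentile of fold enrichment within a list (0 to 100). In the set the share rises from 9.93% to 45.3% with width while the percentile is 79.4 in the narrowest and 58.8 in the widest class.

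The set was spread over every chromosome examined. It made up 12.2% of the constant regions on chromosome 19, the lowest share, and 50.4% on chromosome 21, where 173 of 343 constant regions lacked H3K4me3. On the other chromosomes the share lay between 16.9% and 27.9%. A share of 42.7% of the set lay in protein-coding genes and 12.03% in lncRNA genes alone, and 45.3% lay outside both. Constant regions with H3K4me3 lay outside both in 30.1% of cases.

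The 5 widest regions stood in 5 different places. The widest, chr14:105229659-105240795, covered 11137 bases inside BRF1, which encodes a subunit of the RNA polymerase III initiation factor, and 9114 of them were covered in all 9 lists. The next, chr15:101752645-101762799, held no annotated gene and its common stretch was 3141 bases of 10155. A region of 8874 bases at chr4:186964160-186973033, in LOC102723906, had no base covered in all lists. The region of 7746 bases in IL3RA, a cytokine receptor gene, had a common stretch of 42 bases (chrX:1368762-1376507), and that of 5608 bases at chr3:198099864-198105471 had 515. Each list covered 9393 to 11129 bases of the BRF1 region, and from 553 to 6187 bases of that in IL3RA.

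The regions with the highest fold enrichment within the lists were mostly narrow. The 10 with the highest mean percentile were 130 to 1759 bases wide. At the top stood chr2:148881724-148881853 in KIF5C, a kinesin motor gene of neurons, with 128 of 130 bases covered in all lists and fold enrichments of 37.5 to 73.4 over the 9 lists. Next came chr17:22521345-22521579 and chr13:109424127-109424342, neither in an annotated gene. Of the 10, 3 were the outermost ATAC region at an end of their chromosome, namely chr12:133264937-133265301, chr5:10020-11778 and chrX:156030164-156030746. The others lay at chr22:18730396-18730733, at chr2:49229633-49229827, in RIMBP2 (chr12:130646041-130646439) and on the mitochondrial pseudogene MTND6P3 within KIAA0825 (chr5:94569037-94569537).

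Most regions stood alone. With a gap of up to 10 kb allowed, 3960 regions (84.8%) had no neighbour in the set, and the other 712 formed 277 clusters. The largest held 24 regions at chr1:143184626-143275948, where no gene is annotated. The second held 15 regions at chr17:43232813-43300247, over the RNU2-1 array that encodes U2, an RNA of the spliceosome. The third held 13 at chr4:49091289-49154985, again with no gene, and the next 12 at chr19:50091968-50139572, over snaR genes. Clusters of 9 regions lay at chr21:8387851-8448995, over the ribosomal genes RNA45SN3 and RNA18SN3, at chr1:2652113-2698144 in TTC34, and at chr16:34572200-34596111 with no gene. Tandem arrays of noncoding RNA genes (U2, snaR and ribosomal RNA) thus carried 3 of these 7 clusters.

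At the edge of the rule, the nearest H3K4me3 peak was 1 base away from the TENM3 region (chr4:182448852-182449336) and 3 bases away from a region in COPS8-DT (chr2:237025160-237025404). The next closest regions, in LOC105376356, at chr20:47809673-47810042 and in LOC124902297, were 4, 10 and 11 bases from a peak. In all, 156 regions (3.34%) lay within 1 kb of an H3K4me3 peak and 2004 (42.9%) more than 50 kb from any, with a median of 36.7 kb. Just outside the other threshold were 3743 regions without H3K4me3 that had a peak in 8 of 9 lists. Their median width was 424 bases, and 2023 of them (54.0%) lacked a peak in the same library, replicate 2 of 72 h, whose list was the shortest with 38495 peaks.

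Among regions chosen to hold a peak in every list, width in each library did not separate the treatments. The widths come from the same peaks that chose the regions, so whole peaks lost or gained with THC were left out beforehand. This choice leans the comparison towards no difference, and it cannot show whether THC opened or closed other regions. The bases of a region covered by a library's own peaks had medians over the set of 359, 255 and 368 in untreated replicates 1 to 3, of 233, 300 and 360 at 24 h, and of 377, 274.5 and 347 at 72 h. The 3 groups overlapped. The means were 327 ± 62.8 bases in untreated cells (SD, n = 3), 298 ± 63.5 at 24 h and 333 ± 52.7 at 72 h. By an exact two-sided permutation test of 3 libraries against 3, which cannot give p below 0.1, the difference was -29.7 bases at 24 h (p = 0.6) and 5.5 bases at 72 h (p = 0.9). The lists held 65042 to 150884 peaks in untreated cells, 57356 to 78290 at 24 h and 38495 to 80773 at 72 h, and the part of this in the widths was not tested. Leaving out 1 library turned the sign of either difference, so neither has a direction. Without replicate 1 of 24 h the 24 h difference was 2.67 bases. At 72 h it was -30.7 bases without untreated replicate 2, -16.6 without 72 h replicate 1 and -1.58 without 72 h replicate 3.

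**Figure D3:**
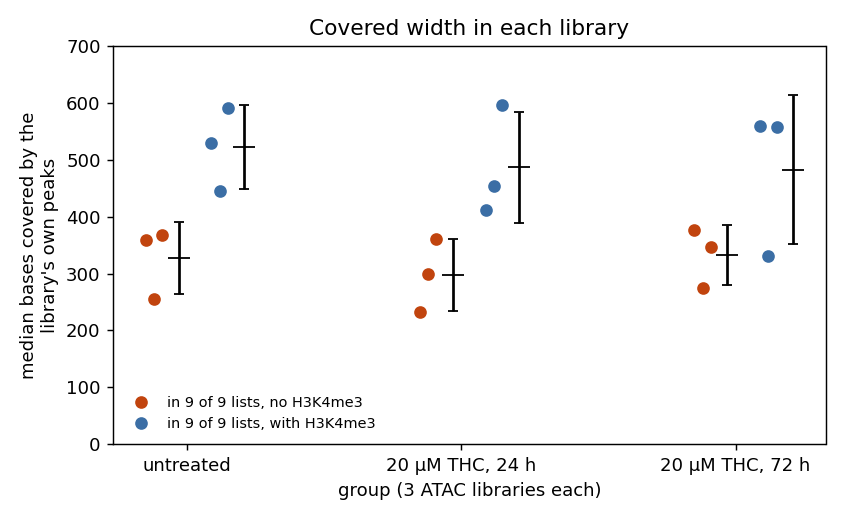
Median bases of a region covered by a library's own peaks, 1 point per ATAC library, with black bars for the mean and SD of 3 libraries, for constant regions without (red) and with (blue) H3K4me3. The points of the 3 groups overlap, between 233 and 377 bases for the regions without H3K4me3.

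Genes near the set were often silent or low in these cells. For 3583 regions (76.7%) a start site of a gene in the RNA table lay within 100 kb, and these gave 2801 distinct nearest genes, 2142 of them protein-coding. The median level of the protein-coding ones in untreated cells was 1.62 TPM, against 20.3 TPM for genes nearest to a constant region with H3K4me3 and 5.60 TPM for all 19044 with a start site. At least 1 TPM was reached by 52.5%, 85.5% and 59.2% of them. Protein-coding genes nearest to regions without H3K4me3 in 8 of 9 lists had a median of 1.58 TPM, and 52.8% reached 1 TPM. Low levels were thus not particular to the set. Within the set, genes nearest to a region of 1000 bases or more had a median of 7.98 TPM, and those nearest to a region under 500 bases had 0.619 TPM. Near the set, near H3K4me3 regions and over all genes the medians kept this order at 24 h, with 1.27, 17.5 and 4.42 TPM, and at 72 h, with 1.86, 21.3 and 6.13 TPM. A gene can be nearest to regions of more than 1 kind and is then counted in each.

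Among the 10 genes that were nearest to most regions, only GALNT9 and MUC20 had a mean of at least 1 TPM and were tested. CCDC200, beside the RNU2-1 array, was nearest to 15 regions. IZUMO2, beside the snaR genes, MMEL1, which encodes a membrane metalloprotease, and PTPRN2, a receptor-type phosphatase of secretory granules, were nearest to 9 each. GALNT9, LINC02849, MUC20, TRG-AS1 and TTC34 had 7 each and DANT1 had 6. GALNT9 encodes an enzyme that starts O-linked glycans on proteins. It was at 1.76, 1.45 and 1.53 TPM in untreated cells, at 5.99, 5.64 and 6.25 TPM at 24 h and at 3.57, 5.39 and 4.23 TPM at 72 h. Both treated groups lay above the untreated group, by 1.43 ± 0.12 at 24 h (log2 of TPM + 1, SE, limma adjusted p = 1.59e-06) and by 1.05 ± 0.12 at 72 h (limma adjusted p = 1.76e-05).

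MUC20 encodes a membrane mucin, and its neighbour MUC4 another. MUC20 was at 0.559, 0.850 and 0.453 TPM in untreated cells, at 0.980, 0.735 and 0.724 TPM at 24 h and at 3.27, 2.48 and 2.30 TPM at 72 h. The 24 h group overlapped the untreated group, with a difference of 0.17 ± 0.13 (limma adjusted p = 0.276), and the 72 h group lay above it by 1.18 ± 0.13 (limma adjusted p = 1.89e-05). The cluster of 7 regions over MUC4 spanned chr3:195762253-195788416. TRG-AS1 lies among V segments of the T cell receptor gamma locus, and its levels were between 0.517 and 1.30 TPM over the 9 libraries.

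THC moved the RNA of genes near the set about as often as that of genes in general. Of 1224 tested nearest genes, 327 (26.7%) were higher at 24 h and 610 (49.8%) lower by limma at an adjusted p under 0.05, where 25% and 51.7% of all 13753 tested genes were called. At 72 h, 494 (40.4%) were higher and 395 (32.3%) lower, against 40.1% and 33%. In either direction 73.1% of all tested genes were called at 72 h and 76.7% at 24 h. Genes nearest to constant regions with H3K4me3 gave 25.9% and 53.2% at 24 h and 38.7% and 36.6% at 72 h. The median log2 change near the set was -0.20 at 24 h and 0.06 at 72 h, beside -0.23 and 0.06 over all tested genes. Both comparisons use the same untreated libraries.

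These splits depend on the scale. TPM gives every library the same total, and with libraries centred on their median the 24 h counts near the set became 480 higher and 449 lower, beside 4954 and 5128 over all tested genes. The same step gave 422 and 473 at 72 h, beside 4790 and 5347. Between 72 h and 24 h the counts near the set were 656 higher and 229 lower as deposited, with 54.9% and 17.8% of all genes called and 72.6% in either direction, and 352 higher and 475 lower after centring.

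Genes that were nearest to 3 or more regions formed a small group of 57 tested genes. At 24 h, 11 of them were higher and 34 lower (19.3% and 59.6%), and at 72 h 32 were higher and 11 lower (56.1% and 19.3%). Over all tested genes the shares were 25% and 51.7%, then 40.1% and 33%. The medians were -0.31 and 0.27 on the log2 scale, beside -0.23 and 0.06. With centred libraries the counts were 17 (29.8%) and 24 (42.1%) at 24 h and 24 (42.1%) and 15 (26.3%) at 72 h, where 36.0% and 37.3%, then 34.8% and 38.9% of all tested genes were called. This group was chosen after its values were seen, and no test was made of its difference from other genes.

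**Figure D4:**
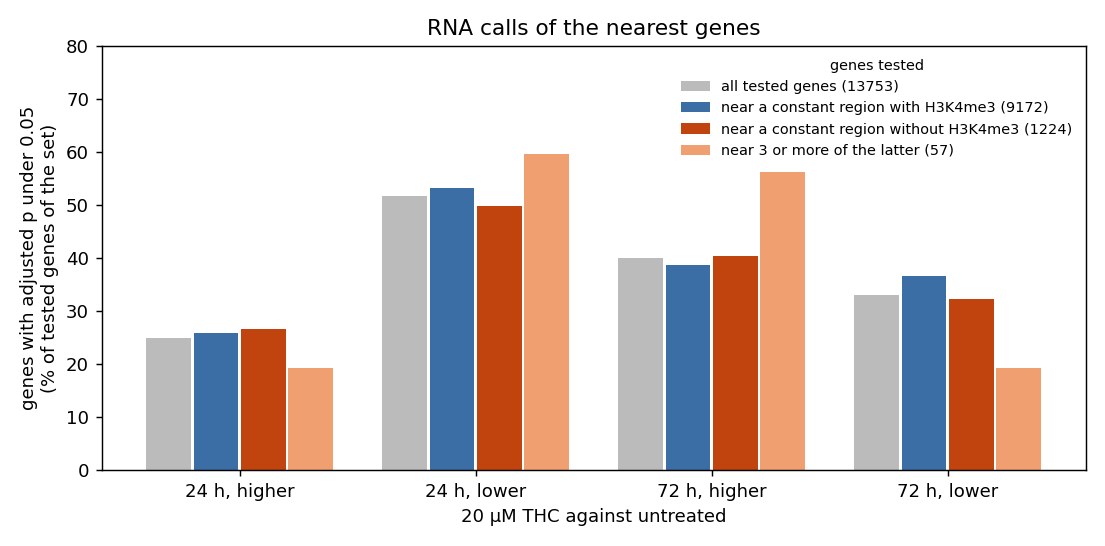
Share of tested genes (%) called higher or lower by limma (adjusted p under 0.05) at 24 h and 72 h, for all tested genes and for genes nearest to constant regions with H3K4me3, without it, and to 3 or more of the latter. Near the set 49.8% of genes were lower at 24 h, beside 51.7% of all genes, and among the 57 genes with 3 or more regions 59.6% were.

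The genes described next were picked for a large change and for a region of the set within 100 kb, so that having one is no finding. ATF3 of the AP-1 list, with no such region, rose by 4.74 at 24 h and by 4.58 at 72 h, more than any of the rises named below. TM4SF4, a membrane protein of the tetraspanin-like L6 family, had the largest fall at both times among the genes picked, and its region was 176 bases wide, 37.7 kb from the start (chr3:149512347-149512522). It was at 48.6, 48.8 and 47.5 TPM in untreated cells, at 4.57, 4.83 and 6.34 TPM at 24 h and at 0.630, 0.715 and 0.559 TPM at 72 h. The 3 groups did not overlap, with differences of -2.99 ± 0.10 at 24 h (limma adjusted p = 2.99e-09) and -4.92 ± 0.10 at 72 h (limma adjusted p = 1.44e-10).

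MALL, a membrane raft protein, fell by 2.37 at 24 h and by 2.76 at 72 h on the log2 scale. ZBED2, a transcription factor, fell by 2.34 and by 2.55, and SIRPA, the receptor for CD47, fell by 2.28 at 24 h and by 1.38 at 72 h. Their regions were 1424, 295 and 205 bases wide. RPL22L1, a paralogue of a ribosomal protein, was at 439, 430 and 446 TPM in untreated cells, at 299.6, 312 and 319 TPM at 24 h and at 78.1, 86.0 and 68.8 TPM at 72 h. Its fall at 24 h was thus small, at -0.50, beside -2.49 at 72 h (limma adjusted p = 7.82e-05 and 1.03e-09).

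Rises were of the same order. MARCO, a scavenger receptor known from macrophages, was at 0.168, 0.245 and 0.176 TPM in untreated cells, at 9.75, 8.06 and 8.81 TPM at 24 h and at 11.97, 12.6 and 11.9 TPM at 72 h. The rises were 3.04 ± 0.08 and 3.46 ± 0.08 (limma adjusted p = 7.51e-10 and 3.05e-10), with no overlap of the groups. The region, 413 bases at chr2:119011369-119011781, lay 69.4 kb from its start. The immune markers of the list stayed at or under a summed 0.123 TPM in each group's mean.

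UPP1, which splits uridine for salvage of the base and the sugar, was at 221, 229 and 227 TPM in untreated cells, at 1846, 1666 and 1639 TPM at 24 h and at 666, 619 and 646 TPM at 72 h. It rose by 2.92 at 24 h and by 1.51 at 72 h and had 2 regions, the nearer at chr7:48101879-48102328. NDRG1, a gene induced by stress and low oxygen, rose by 2.84 and by 2.04, from 120.5 TPM to 871 and 498 TPM. The lncRNA EPB41L4A-AS1 rose by 3.04 and by 2.21, and CCL3L3, a chemokine with near-identical copies, was at 0.416 ± 0.184 TPM, then at 15.4 ± 1.88 and at 1.28 ± 0.499 TPM (SD, n = 3). In all of these the level at 24 h was above that at 72 h.

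A second group was higher at 72 h than at 24 h. ZNF554, a zinc finger protein, was at 4.28 ± 0.377 TPM in untreated cells (SD, n = 3), at 7.31 ± 0.459 at 24 h and at 30.7 ± 0.973 at 72 h. SDCBP2, a PDZ protein of the syntenin family, rose by 1.91 and by 2.56, and THEMIS2, an adaptor of immune cell signalling, by 1.498 and by 2.38. PCGF3-AS1 and SLC9A3-AS1 fell at 24 h, by 0.65 and 1.01, and rose at 72 h, by 1.42 and 0.71. Both are antisense genes, and without a stated use of strand in counting their reads cannot be told apart from those of the sense gene. SULT1A3, which has a near-identical copy, fell by 1.47 at 24 h, and its difference of 0.65 at 72 h missed the threshold (limma adjusted p = 0.109).

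For OASL and ADM the test was passed at 24 h and not at 72 h. OASL, an antiviral protein induced by interferon, was at 10.4, 10.7 and 10.7 TPM in untreated cells, at 55.1, 50.6 and 49.9 TPM at 24 h and at 11.6, 10.3 and 11.6 TPM at 72 h. Its differences were 2.18 ± 0.06 and 0.06 ± 0.06 (limma adjusted p = 1.06e-09 and 0.368), and the 72 h level differed from that at 24 h by -2.12 (limma adjusted p = 8.96e-09). ADM, a peptide hormone that widens vessels, differed by 1.69 at 24 h and 0.10 at 72 h (limma adjusted p = 2.79e-06 and 0.553).

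**Figure D5:**
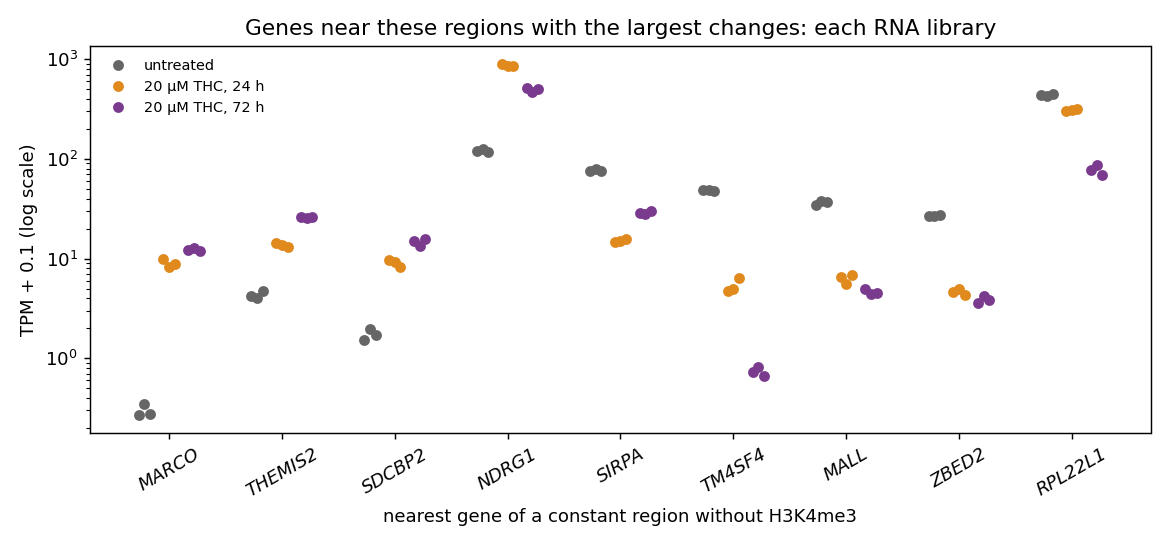
TPM + 0.1 on a log axis in each of the 9 RNA libraries (3 points per group) for 9 genes with large changes that are the nearest gene of a constant region without H3K4me3. The 3 groups do not overlap in any of the 9, and TM4SF4 spans the widest range, from 48.8 TPM untreated to 0.559 TPM at 72 h.

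SIK1, whose promoter stretch is printed above, was at 1.81, 1.65 and 2.02 TPM in untreated cells, at 17.6, 16.2 and 16.8 TPM at 24 h and at 10.5, 4.26 and 5.84 TPM at 72 h. All treated libraries lay above the untreated ones, by 2.66 ± 0.22 at 24 h and by 1.40 ± 0.22 at 72 h (limma adjusted p = 1.84e-06 and 0.000236). IFNL2 and IFNL3, antiviral interferons, were below the level needed for a test: IFNL2 had group means of 0.0833, 1.34 and 0.279 TPM and IFNL3 of 0.318, 1.31 and 0.275 TPM in untreated, 24 h and 72 h cells. CAPN13, a calpain protease, fell by 1.19 at 24 h and by 1.45 at 72 h, and NSF by 1.04 and by 0.32. Over all 40 tested protein-coding genes with a start in the set, 8 (20.0%) were higher and 16 (40.0%) lower at 24 h, beside 25% and 51.7% of all tested genes. At 72 h 12 (30.0%) were higher and 9 (22.5%) lower, beside 40.1% and 33%, so all 4 shares lay below those of all genes. SIK1, CAPN13 and NSF were chosen after their values were seen.

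Genes of factors that build or use distal elements were nearest to regions of the set about as often as other genes. Of 24187 genes with a start site, 2801 (11.6%) had a region within 100 kb, and so had 2 of 14 loop and insulator genes and 2 of 16 enhancer cofactor genes. The calls below stand beside 25% of all tested genes higher and 51.7% lower at 24 h, and 40.1% and 33% at 72 h. Of the 14 loop and insulator genes, 2 (14.3%) were higher and 11 (78.6%) lower at 24 h, and 1 (7.14%) and 9 (64.3%) at 72 h, with medians of -0.60 and -0.37 beside -0.23 and 0.06 over all tested genes. STAG1, a cohesin subunit, had a region 29.0 kb away (chr3:136722677-136724082) and fell by 0.98 and by 0.67. MAU2, which helps to load cohesin, had a region at 22.1 kb and rose by 0.38 and by 0.97. Of the 16 enhancer cofactor genes, 3 (18.8%) were higher and 10 (62.5%) lower at 24 h, and 4 (25%) and 7 (43.8%) at 72 h. Their medians were -0.27 and -0.09. With centred libraries 5 cofactor genes were higher and 6 (37.5%) lower at 24 h, and 1 and 10 (62.5%) at 72 h. On that scale 37.3% and 38.9% of all tested genes were lower at the 2 times. The loop and insulator counts became 2 and 10, then 1 and 10. Among the cofactor genes MED13, of the Mediator kinase module, and NCOA3, a nuclear receptor coactivator, each had 1 region. MED13 rose by 0.30 at 24 h and differed by -0.08 at 72 h (limma adjusted p = 0.254), and NCOA3 by -0.05 and 0.03 (limma adjusted p = 0.502 and 0.706).

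AP-1 genes, which encode the stress-responsive FOS and JUN factors that bind enhancers, had 0 regions of the set as nearest gene. Of 15 tested, 12 (80%) were higher and 2 lower at 24 h, where 25% and 51.7% of all tested genes were, and 13 (86.7%) were higher and 1 lower at 72 h, where 40.1% and 33% were. The medians were 1.14 and 1.16. In the TEAD and YAP list 0 of 12 tested genes were higher and 8 (66.7%) lower at 24 h, and 0 were higher and 10 (83.3%) lower at 72 h. With centred libraries, a setting chosen for the lists after seeing the data, 3 of these 12 were higher and 6 lower at 24 h, and 0 and 11 at 72 h. TEAD1, a DNA-binding partner of YAP, fell from 53.7 ± 3.85 TPM (SD, n = 3) to 23.6 and 20.2 TPM, with a region at chr11:12914455-12914884. VGLL4, a competitor of YAP, also had a region and differed by 0.10 and -0.07 (limma adjusted p = 0.377 and 0.535).

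Of 32 epithelial transcription factor genes, 22 were tested. At 24 h 12 (54.5%) were higher and 8 (36.4%) lower, beside 25% and 51.7% of all tested genes, and at 72 h 12 (54.5%) and 6 (27.3%), beside 40.1% and 33%. A region of the set was near 5 of the 32, where 11.6% of all genes had one. SOX9, a factor of glandular progenitors, fell from 38.4 ± 2.92 TPM to 23.9 and 16.3 TPM, and ELF1, an ETS factor, rose from 23.8 to 28.0 and 39.0 TPM. EHF rose by 0.90 at 24 h and FOXA1, a pioneer factor, fell by 0.73, and at 72 h they differed by -0.01 and -0.03 (limma adjusted p = 0.969 and 0.792). GRHL3 was below the level tested. Of 14 endometrial lineage genes 7 were tested, and at 24 h 1 (14.3%) was higher and 5 (71.4%) lower. At 72 h 4 (57.1%) were higher and 2 (28.6%) lower, beside 40.1% and 33% of all tested genes. Among these 14, PAX2, a factor of the Müllerian duct, had 2 regions, the nearer 84.1 kb away. PAX2 fell from 12.95 to 4.14 and 5.78 TPM. ESR1 and WT1 each had 1 region and group means at or under 0.0753 TPM. Of the 10 epithelial markers, all tested, 8 (80%) were higher and 2 (20%) lower at 24 h, beside 25% and 51.7% of all tested genes. At 72 h 3 (30%) were higher and 2 (20%) lower, beside 40.1% and 33%. MUC1, an epithelial surface mucin, was the 1 marker with a region, of 3422 bases at 2.60 kb. It was at 4.42 ± 0.551 TPM and fell by 0.52 at 24 h, against most of the list. At 72 h it differed by -0.04 (limma adjusted p = 0.796).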

How the data were processed

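RNA-seq (9 libraries), ATAC-seq (9) and H3K4me3 CUT&RUN (6) files of HEC-1A cells were used, and the IgG control was left out because no file of it was used here. The deposited RNA values are TPM (transcript abundance scaled to the same total in every library), with read depth not given, so that no counting interval was made. The deposited peak lists give, for each peak, the authors' fold enrichment (a ratio), its −log10 p and −log10 q values and a score, and were called per library. The submitters' processing notes name the build GRCh38, the peak callers MACS2 2.2.7.1 and MACS3, Bowtie2, Salmon, Picard, SAMtools, FastQC and Trim Galore. Which step used which, the read shift for ATAC, duplicate handling and strand in counting are not stated there.

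Overlapping or adjoining peaks were merged with Python 3.11.15 (pandas 2.3.3, numpy 2.4.6, scipy 1.17.1, figures with matplotlib 3.10.9), and the merging was tested on 20 simulated peak sets. Start sites were those of RefSeq's promoter table (GRCh38.p14), and both ends of the gene where it had no entry. It covered 27194 of 38147 protein-coding and lncRNA genes (71.3%). Of 60179 RNA identifiers, 59918 had a symbol. Genes with a mean of at least 1 TPM (13753) were tested on log2(TPM + 1) with limma 3.58.1, in 1 fit of all 9 libraries with Benjamini-Hochberg adjustment over all tested genes, and fold changes on this scale understate those of low genes. Per-library widths were compared by exact permutation tests.

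Named regions were the 5 widest, the 10 with the highest mean percentile of fold enrichment and the largest clusters. Named genes were the 10 nearest to most regions and, per RNA comparison, the 5 largest rises and falls among called genes with at least 5 TPM, groups that did not overlap and a region within 100 kb, besides members of the gene lists. Some genes that this rule names are not reported here. The regions and lists were chosen with earlier results of these data known. Alternatives were stricter peaks, other merging, H3K4me3 and distance rules, other pseudocounts and filters, centred libraries, a replicate block and each library left out.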

Additional observations from a re-analysis of the deposited data

Results flagged for a closer look

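The RNA of 20 named genes near the set differed between 72 h and 24 h of THC, tested as the difference between both treated groups in limma (log2 of TPM + 1, adjusted p under 0.05). Both groups are set against the same untreated libraries. Higher at 24 h were CCL3L3 (-2.87), OASL (-2.12), RPL22L1 (-1.99), TM4SF4 (-1.92), ADM (-1.59), UPP1 (-1.41), EPB41L4A-AS1 (-0.83), NDRG1 (-0.81), MALL (-0.38), GALNT9 (-0.38) and ZBED2 (-0.21). Higher at 72 h were SULT1A3 (2.12), PCGF3-AS1 (2.07), ZNF554 (1.93), SLC9A3-AS1 (1.73), MUC20 (1.02), SIRPA (0.90), THEMIS2 (0.88), SDCBP2 (0.65) and MARCO (0.41). The rule for naming genes used this contrast for several of them, so the list is a description.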

How the results depend on the processing

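With ATAC peaks of −log10 q of at least 5 the set held 920 regions in place of 4672, and 87.1% of them lay over 1 kb from a start, in place of 89.6%. With the promoter table's starts only, chosen after seeing the data, that share was 93.4%. Leaving out 1 ATAC or H3K4me3 list gave 4713 to 6697 regions, the most without 72 h replicate 2. With starts within 20 kb only, which leaves fewer genes, 139 genes were higher and 267 lower at 24 h, 230 and 151 at 72 h, and 301 and 94 at 72 h against 24 h. With centred libraries the last were 352 and 475. Leaving out 1 RNA library gave 310 to 326 and 573 to 610 at 24 h, 449 to 497 and 359 to 400 at 72 h, and 619 to 656 and 213 to 227 at 72 h against 24 h. Width differences ran from -65.8 to 2.67 bases at 24 h and from -30.7 to 34.7 at 72 h. In RNA, deviations from the group means correlated at -0.20 to 0.25 between libraries of equal replicate number and at -0.23 to 0.22 between others. No such check was made for ATAC-seq or H3K4me3 libraries. With the replicate block the counts were 327 and 612, 492 and 399, and 664 and 229, and the widths had exact sign-flip p = 0.75 and 1, where 3 pairs cannot go below 0.25. Of 894 values for 60 effects of named genes, 887 kept direction and call, 5 lost and 2 gained the call, and 0 reversed. Between 72 h and 24 h, ZBED2 lost it without 24 h replicate 2 (-0.16) or 72 h replicate 1 (-0.16) or 3 (-0.21), GALNT9 without 72 h replicate 1 (-0.27) and MARCO with centred libraries (0.11). MUC20 gained it at 24 h with centred libraries (0.38), and SULT1A3 at 72 h without 24 h replicate 2 (0.65). Motif shares and sequences of the distal regions were planned and not run, as no genome was used here. RNA depth is unknown and peak lists differ in length, which limits what a shared or missing peak shows.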
